A study of Rattus norvegicus with 4 samples.

Results

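The microRNAs (miRNAs) miR-23, miR-24 and miR-27 are made together from 2 clusters of hairpins, called a and b, and were followed here in rat hearts after myocardial infarction (MI). The 6 members are rno-miR-23a, rno-miR-27a, rno-miR-23b, rno-miR-27b, rno-miR-24 and rno-miR-24-1*, found by name among the rat probes of each array. They were 6 of 348 rat probes at day 2 and 6 of 677 at day 14. A star marks the arm of a hairpin that was held to be the less abundant when the array names were given.

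All rats were male and of the Wistar strain, and their age is not given in the labels. In the sham groups the chest was opened from the side and the pericardium was opened; in the MI groups the left anterior descending coronary artery was also tied off. Hearts were taken 2 or 14 days after surgery, and RNA from 3 rats of a group was pooled and labelled with the dye Hy3. Each of the 4 groups had 1 array, so no difference has a check across animals and no test was possible. Errors are standard errors (SE) over the 4 spots that carry each probe on a slide; differences among animals or slides are not in them. Values are on the log2 scale of normalized spot intensity, and differences are MI minus sham within a day. A miRNA was called when the arrays differed at least 2-fold, which is 1 on this scale. Day 2 and day 14 arrays were of different generations and took 1 µg and 500 ng of RNA, so day, array and RNA amount cannot be told apart. The probes for miR-23b, miR-27b and miR-24-1* also have different probe numbers in these generations, while those for miR-23a, miR-27a and miR-24 keep theirs.

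A miRNA is cut from its hairpin precursor and guides a silencing complex to messenger RNAs that pair with its seed, the bases 2 to 8. In vertebrates the a and b clusters each encode a miR-23, a miR-27 and a miR-24. miR-23 and miR-27 have been studied in mouse endothelium and blood vessel growth, miR-24 in mouse endothelium after infarction, and miR-23a in cardiac muscle growth in rodents.

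The sequences show which members a probe has to separate and which share a seed. They are from RefSeq on the GRCr8 rat assembly, where all 6 members were matched, with the seed in capitals; miR-24-2*, the partner of miR-24-1* in the a cluster, is added for comparison.
miR-23a: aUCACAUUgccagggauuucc
miR-23b: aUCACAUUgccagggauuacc
miR-27a: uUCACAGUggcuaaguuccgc
miR-27b: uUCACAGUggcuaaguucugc
miR-24: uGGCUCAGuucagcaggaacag
miR-24-1*: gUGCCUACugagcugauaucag
miR-24-2*: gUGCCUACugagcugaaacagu
Positions are counted from 1 at the 5′ end. miR-23a and miR-23b share 20 of 21 bases and differ by U19A, and miR-27a and miR-27b share 20 of 21 and differ by C19U. Each pair is therefore alike over its first 18 bases, seed included. miR-24-2* and miR-24-1* share 17 of 22 bases, with the same first 16. Of 693 rat mature names, the seed UCACAUU was carried by the 2 miR-23 names only. In the same way UCACAGU was carried by the 2 miR-27 names and UGCCUAC by the 2 star arms, while GGCUCAG belonged to miR-24 alone. Mature miR-24 has 1 sequence from both hairpins, so its probe cannot tell the clusters apart and it belongs to neither side below. Signal shared between probes for near-identical miRNAs was not corrected or tested.

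In GRCr8 the a cluster lies on the minus strand of chromosome 19, at chr19:40859455-40859843, and spans 389 bases with Mir23a, Mir27a and Mir24-2 in the order of transcription. It lies inside no other annotated gene, with Zswim4 1712 bases away on one side and Nanos3 29687 bases away on the other. The b cluster lies on the minus strand of chromosome 17, at chr17:1818669-1819482, and spans 814 bases with Mir23b, Mir27b and Mir24-1. All 3 of its hairpins lie within the span of Aopep, an aminopeptidase gene, and Mir24-1 overlaps Mir3074. Both clusters keep the order miR-23, miR-27, miR-24, but in the b cluster the last hairpin is farther off, from base 746 to 813 against 281 to 388.

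**Figure D1:**
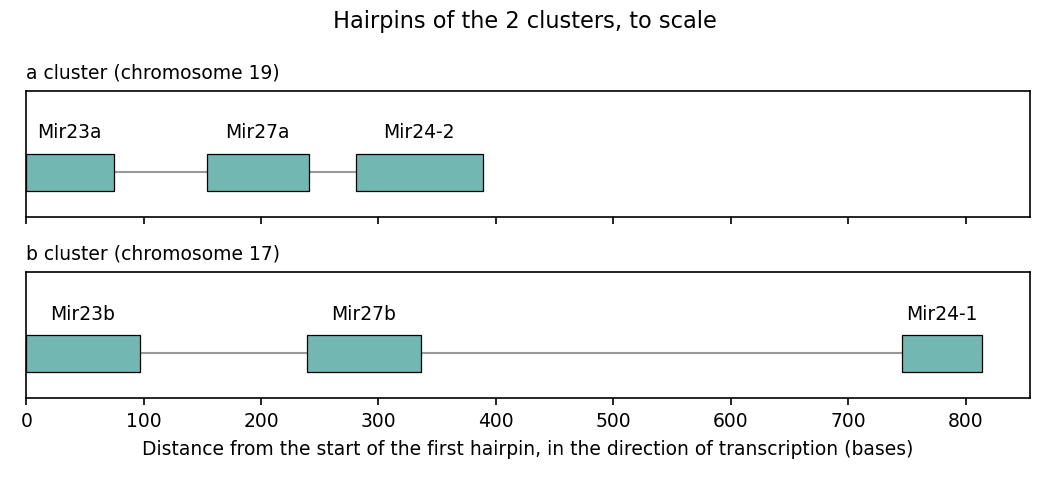
Hairpins of the a cluster on chromosome 19 and the b cluster on chromosome 17, drawn to scale as boxes by their distance in bases from the start of the first hairpin. The a cluster ends at 388 bases and the b cluster at 813, with the wide gap before Mir24-1.

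The day 2 sham array stood apart from the other 3. Its median local background was 322 intensity units against 131, 94 and 100, and above its own median foreground of 301. Of its 4 spot sets, set 4 was mostly dim, with a median deviation of -1.15 from the median of a probe's 4 spots. Not every spot of set 4 was low, and that of miR-23b was not. The header of the array's scan names an image with the mouse prefix while the labels name rat. Day 2 differences of the members and of other rat miRNAs named outside the marker lists are given with set 4 and, normalized anew, without it. For the marker lists this holds for counts past 2-fold and some differences only. A human-named miR-23b probe is given with set 4 only. Of the rat probes, 166 and 199 were detected on the sham and MI arrays at day 2, and 173 and 214 at day 14. At day 2, 16 and 11 were saturated, and at day 14 none were. All 6 members were detected on all 4 arrays.

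At day 2 no member was called between the infarcted and the sham hearts under the main processing. miR-27b passed 2-fold under 2 alternatives, at 1.10 (SE 1.04) with local background subtracted and at 1.37 in the authors' deposited value table, a separate log2 table of the same arrays. Its sham spot of set 4 had a foreground of 717, under its background of 722. Other alternatives went down, to 0.10 with the arrays centred on their medians, 0.06 with arrays shifted by spike-in probes and -0.23 without normalization. Of the 5 members with a difference, 0 were called higher, beside 8 of 187 rat miRNAs (4.28%), and 0 lower, beside 2 (1.07%). The differences ran from -0.17 to 0.65, with SEs of 0.17 to 0.76. Their median was 0.01, and that of all 187, bounds included, was 0.09. For 0 of 5 members did all MI spots lie above all sham spots, beside 9 of 147 rat miRNAs measured on both arrays (6.12%).

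In the a cluster, miR-23a was near the top of the scanner's range on both arrays. Its 4 spots read 15.42, 15.51, 15.55 and 14.74 in sham and 14.96, 15.29, 15.67 and 15.36 in MI, and the arrays overlapped. The difference was 0.01 (SE 0.24), and 0.03 (SE 0.18) without set 4. Its foregrounds reached 52688 in sham and 46285.5 in MI, against a limit of 65535, so values far above these could not be read. miR-27a had spots of 12.50, 12.36, 11.77 and 11.80 in sham and between 11.77 and 12.10 in MI. These also overlapped, with a difference of -0.14 (SE 0.20), and -0.09 (SE 0.23) without set 4.

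In the b cluster, miR-23b had spots of 15.54, 15.32, 15.48 and 15.50 in sham and 15.19, 14.88, 15.52 and 15.60 in MI. Its difference was -0.17 (SE 0.17), and 0.00 (SE 0.20) without set 4, and the arrays overlapped. The sham spot of set 4, at 15.50, was not low here. With set 4 dropped after normalization instead of before, the difference was -0.25 (SE 0.20). miR-27b spread widely in sham, at 10.20, 10.33, 9.49 and 8.47, and narrowly in MI, at 9.93, 10.03, 10.20 and 10.06. Its difference of 0.43 (SE 0.43) was about as large as its error, and it was 0.25 (SE 0.27) without set 4. miR-24-1*, made from the b hairpin only, read 12.61, 12.76, 12.80 and 9.69 in sham and 12.43, 12.61, 12.84 and 12.55 in MI. Here 1 low sham spot of set 4 set the value: the difference was 0.65 (SE 0.76) with it and 0.09 (SE 0.14) without.

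miR-24, the product of both clusters, was saturated in sham at day 2. Its sham spots had foregrounds of 65535, 65535, 63924 and 12097, and the MI spots normalized to 15.37, 15.44, 15.17 and 15.27. No fold can be given, since the bright spots are limits and the dim one lies in set 4. Without set 4 sham was the brighter array and MI was lower by a bound, with a difference of -0.43 (SE 0.13).

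**Figure D2:**
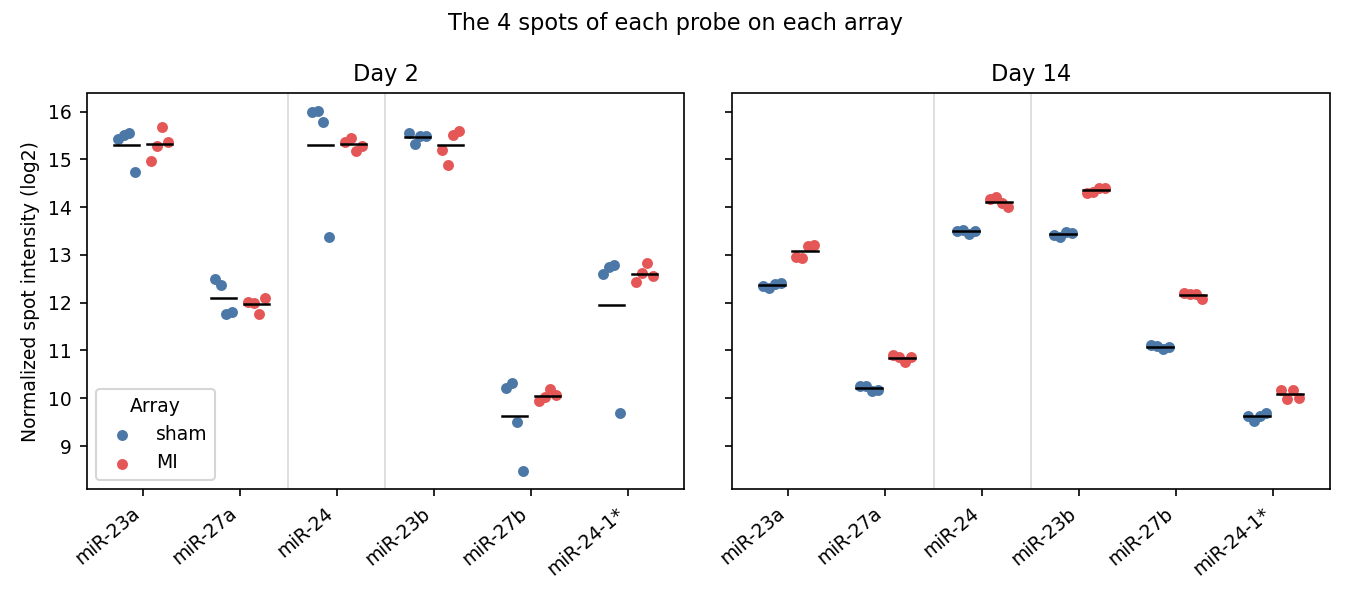
Normalized log2 intensity of the 4 spots of each member on the sham (blue) and MI (red) arrays at day 2 and day 14, with bars at the means; grey lines set miR-24 apart. At day 2 the arrays overlap for the 5 members with a difference, with single low sham spots, and at day 14 the MI spots lie above the sham spots for all 6 members.

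At day 14 all 6 members were higher in the infarcted hearts, by 0.46 to 1.08, or 1.38-fold to 2.12-fold. Every MI spot lay above every sham spot for 6 of 6 members, beside 71 of 157 rat miRNAs measured on both arrays (45.2%), and SEs were 0.033 to 0.076. Only miR-27b was called: 1 of 6 members was at least 2-fold higher, beside 27 of 230 rat miRNAs (11.7%), and 0 were lower, beside 8 (3.48%). Most rat miRNAs also lay above 0, 156 of 230, with a median of 0.26. The 230 include bounds, and the bounds of probes detected in MI only could not fall below 0. Over the 157 measured on both arrays the median was 0.24. The members' median was 0.68, and each of the 6 lay above the median of all 230, by 0.21 to 0.82. Each member with a value also did so under all 18 ways of processing tried, but with quantiles over the 4 arrays, which measured miR-23a, miR-27a and miR-24 only, the lead was just 0.045 to 0.10.

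miR-27b of the b cluster differed most among the members. Its raw foregrounds were 1944, 1905, 1806.5 and 1861 in sham and 6001.5, 5981.5, 5944 and 5560 in MI. After normalization the spots read 11.12, 11.10, 11.03 and 11.07 in sham and 12.20, 12.18, 12.19 and 12.08 in MI. The MI spots lay well above, and the difference was 1.08 (SE 0.033), 2.12-fold, at place 16 of 157 from the top. The call rests on the scaling: the difference was 0.91 with the arrays centred on their medians and 0.99 with cyclic loess, both short of 2-fold.

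miR-23b, its neighbour in the b cluster, followed with spots of 13.41, 13.38, 13.48 and 13.46 in sham and 14.29, 14.32, 14.39 and 14.40 in MI. The groups were apart by 0.92 (SE 0.036), 1.89-fold, place 22. The third product of that cluster, miR-24-1*, differed least under the main processing. It read 9.63, 9.52, 9.63 and 9.69 in sham and 10.17, 9.99, 10.16 and 10.01 in MI, a difference of 0.46 (SE 0.060), place 52. It was 0.06 in the authors' deposited value table. With cyclic loess miR-24-1* was at 0.34 and miR-24 at 0.32, and with the mean of pixels they were at 0.65 and 0.63.

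In the a cluster, miR-23a had spots of 12.35, 12.31, 12.40 and 12.41 in sham and 12.96, 12.94, 13.19 and 13.21 in MI. All MI spots were the higher ones, by 0.71 on average (SE 0.076), 1.64-fold, place 34. miR-27a read 10.25, 10.25, 10.16 and 10.17 in sham and 10.91, 10.86, 10.75 and 10.86 in MI. It was 0.64 higher (SE 0.042), 1.56-fold, place 38. miR-24, from both clusters, read 13.51, 13.53, 13.44 and 13.50 in sham and 14.18, 14.20, 14.10 and 14.00 in MI, and was 0.62 higher (SE 0.051), 1.54-fold, place 40. These 3 members lay between 0.62 and 0.71 here, but the range depends on the scaling. miR-23a and miR-24 were at 0.59 and 0.29 with centred arrays, at 0.66 and 0.32 with cyclic loess, and at 0.75 and 0.25 in the authors' deposited value table.

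**Figure D3:**
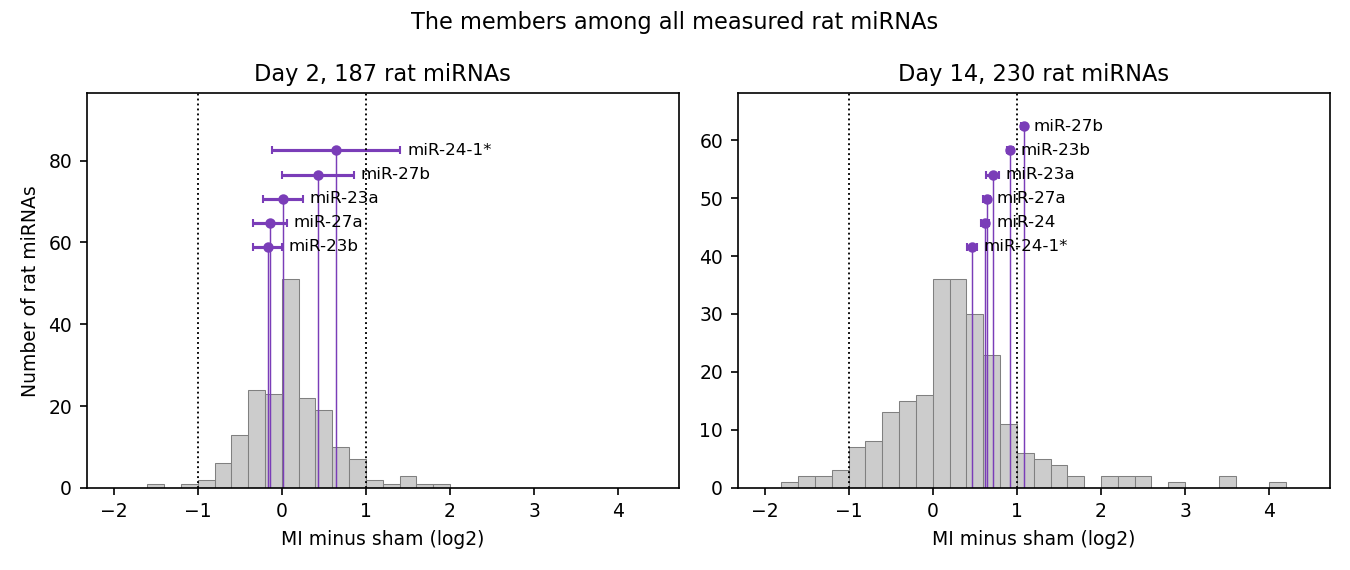
Histograms of MI minus sham (log2) over the 187 rat miRNAs with a value at day 2 and the 230 at day 14, with the members as points with SE over spots and dotted lines at 2-fold. At day 2 the members lie inside the bulk, and at day 14 all 6 lie right of 0, with miR-27b past the 2-fold line.

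The a and b products were set against each other as differences of their MI minus sham values. A constant difference in brightness between the probes of a pair cancels there, but scaling that changes with intensity does not. At day 14 the difference of miR-27a was smaller than that of miR-27b, with a gap of -0.44 (SE 0.053), larger than the spread between spots. The gap for miR-23a against miR-23b was -0.21 (SE 0.085), but -0.058 (SE 0.071) without normalization, with centred arrays and with the spike-in shift, and -0.019 (SE 0.071) with cyclic loess. In the authors' deposited value table it was 0.26, in the opposite direction, so miR-23 has no settled direction. For miR-24-2* against miR-24-1* it was 0.14 (SE 0.083), with a range of 0.07 to 0.23 over 17 ways of processing and 0.076 (SE 0.084) with cyclic loess. Of these gaps, that of miR-27 was the clearest against its error. Under all 17 ways of processing tried, main included, the miR-27 gap stayed below 0, from -0.78 to -0.37.

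At day 2 the same gaps were -0.57 (SE 0.47) for miR-27, 0.18 (SE 0.30) for miR-23 and -0.22 (SE 0.98) for the star arms. None was clearly larger than its error, and without set 4 they were -0.35 (SE 0.36), 0.03 (SE 0.27) and -0.05 (SE 0.15).

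**Figure D4:**
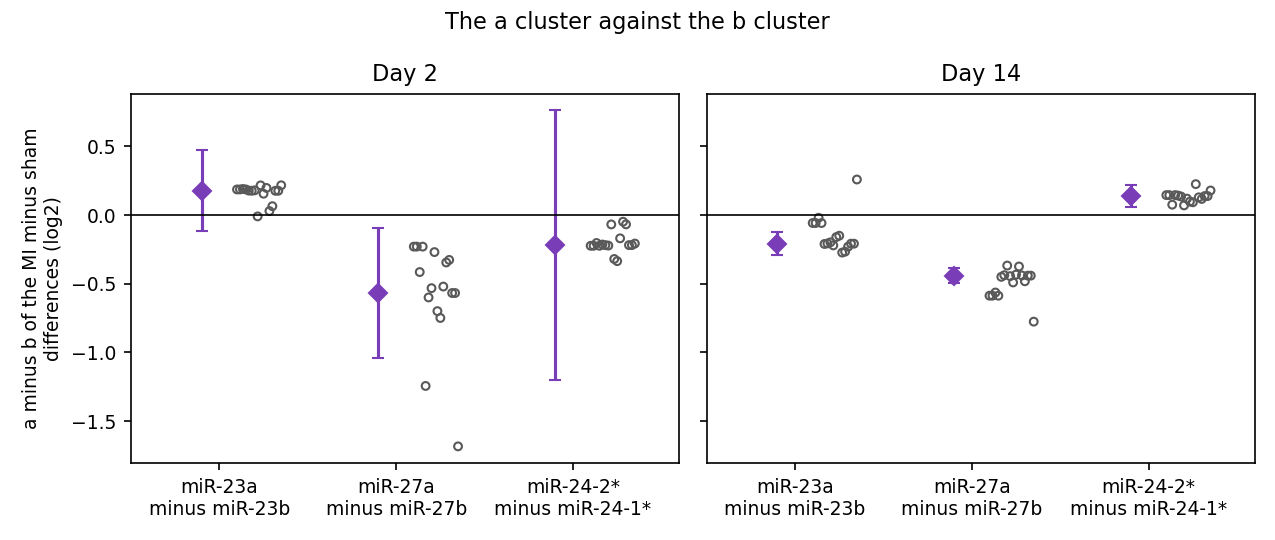
The a minus b gap in MI minus sham (log2) for each pair at day 2 and day 14, with diamonds and SE bars over spots for the main processing and circles for the alternatives. At day 14 the miR-27 gap is -0.44 and below 0 under every way tried, while the miR-23 gap comes near 0 under other scalings and passes it in 1 of 17.

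The other arms of these hairpins were mostly weak. miR-24-2* was detected on all 4 arrays. At day 2 its sham spots read 11.91, 11.98, 12.06 and, in set 4, 9.52, and the difference was 0.43 (SE 0.62) with set 4 and 0.04 (SE 0.059) without. At day 14 it was 0.60 higher in MI (SE 0.058), from 10.16 to 10.77, 1.52-fold. Its day 14 value lies close to that of mature miR-24, at 0.62. miR-23a* was detected in MI only on both days, with bounds of 0 and 0.03 that leave the size unknown, and without set 4 it was not detected at day 2. miR-27a* was not detected at either day, nor were miR-23b* and miR-27b* at day 14. The array of day 2 carried miR-23b* and miR-27b* probes named for human or mouse, and neither was detected.

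Markers of cell types also differed at day 14 on the same arrays. All 5 heart muscle miRNAs were detected and 4 of 5 were at least 2-fold lower in MI, from -1.42 to -0.66, and their summed level went from 15.3 to 14.0. Of 5 fibroblast and smooth muscle miRNAs 3 were higher, from -0.15 to 3.43 with a summed level of 14.0 in sham and 15.4 in MI. The endothelial miR-126 and miR-126* were -0.29 and -0.39, with 0 of 2 called and a summed level of 14.3 in sham and 14.0 in MI. Of 4 leukocyte miRNAs 3 were higher and 1, miR-150, was lower, from -1.74 to 1.72. Of the higher ones, miR-142-5p at 1.48 is a bound, as it was not detected in sham. The summed level of these opposite changes was 13.2 in sham and 13.6 in MI. The 2 erythroid miRNAs were 0.01 and 0.21, and of 5 markers of other tissues 1 was detected in sham and 2 in MI. The part of these shifts in the members' differences was not tested, and in whole tissue more cells of a type and more RNA per cell cannot be told apart. At day 2, where no member was called, 2 of 4 leukocyte miRNAs were at least 2-fold higher, from 0.83 to 1.99, and 3 of 4 without set 4, from 0.34 to 2.17. Of the other marker miRNAs with a value, 0 were, with or without set 4. Only 2 of 5 heart muscle, 1 of 2 endothelial and 4 of 5 fibroblast and smooth muscle miRNAs had one, the rest being saturated. With and without set 4, miR-499 was 0.51 and -0.28, miR-133b 0.33 and -0.11, and miR-126* 0.11 and -0.45. Of 5 markers of other tissues, 3 were detected in sham and 5 in MI at day 2. In sham and MI, miR-206 read 13.3 and 12.7, miR-9 10.5 and 10.1, and miR-203 10.2 and 10.4.

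By a likeness rule, the rat miRNAs nearest to the members' medians over both days were named among 86 measured on both arrays of both days. The medians were 0.01 and 0.71 over the 5 members with a value on both days. The nearest were miR-99a at -0.06 and 0.76, miR-351 at 0.11 and 0.73, miR-20a at 0.16 and 0.77, miR-93 at -0.12 and 0.63, and miR-106b at -0.04 and 0.87. The rule picks them for these values, and their distances were 0.087 to 0.170. Their day 2 SEs were 0.042 to 0.38, and without set 4 their day 2 differences were between -0.31 and 0.15. The nearest to miR-27b were miR-542-3p at 0.36 and 1.01, miR-146b at 0.34 and 0.96, and miR-301a at 0.65 and 1.25. Their day 2 SEs were 0.81, 0.11 and 1.00, and without set 4 the day 2 differences were -0.22, 0.52 and -0.10. Likeness rests on 2 differences from 4 arrays.

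**Figure D5:**
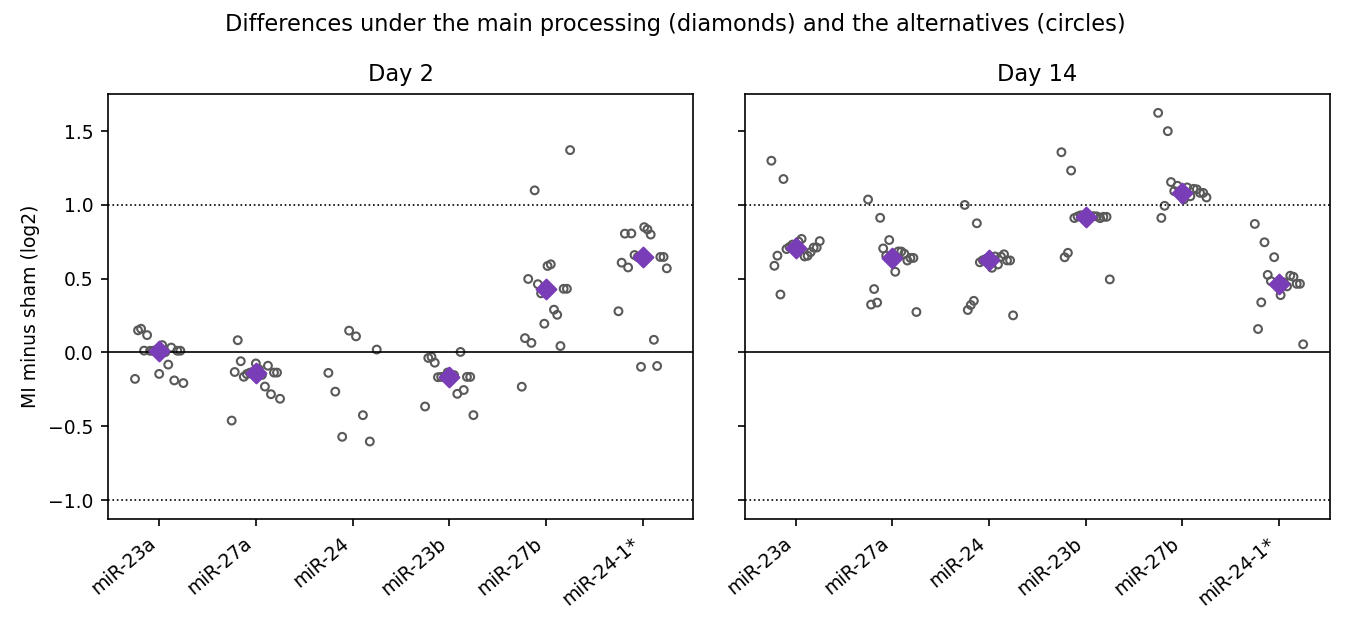
MI minus sham (log2) of each member under the main processing (diamonds) and each alternative (circles) at day 2 and day 14, with dotted lines at 2-fold. At day 14 every value is above 0 and miR-24-1* comes lowest, at 0.06, while at day 2 most values lie near 0 and those of miR-24 are bounds or differences from the alternatives only.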

How the data were processed

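Spot and local background intensity in the Hy3 channel at 532 nm were deposited as scanner output of Mapix 4.5.0, per the file headers. Those headers name array version 11.0 (names of miRBase 12.0) for day 2 and generation 6 (miRBase 16.0) for day 14. The percent of saturated pixels, also deposited per spot, set no call. How the authors made their deposited log2 value table was not stated; against the scanner values its slopes were 1.15 to 1.40 and its Spearman correlations 0.985 to 1.00, with column medians of 6.36 at day 2 and 4.70 at day 14. Its background correction and centring stay unknown, and it served as an alternative. Groups come from sample titles, since all samples carry 1 and the same treatment text.

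Median foreground was corrected with normexp in limma 3.58.1 (R 4.3.3, offset 50), turned to log2, quantile normalized over the miRNA spots of a day's 2 arrays, and averaged over 4 spots. Detection of a spot required foreground beyond background plus 2 background SDs, and detection of a probe 50% or more of its spots. Saturation meant 50% or more of a probe's spots at 65535, and gives a bound or no fold. Where 1 array only detected a probe, the bright mean was set against the dim mean or, if higher, the lowest detected mean on the dim array; such bounds under 1-fold were put at 0. The calculation was tested on simulated data, with the background of the MI array on both arrays and the same noise for all spots. That setting has no dim spot set and no high sham background, so it does not cover the day 2 sham array. The members, the marker lists, the alternatives and the likeness rule (the 5 miRNAs nearest to the members' medians, and the 3 nearest to miR-27b) were chosen with earlier results of these data known.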

Additional observations from a re-analysis of the deposited data

Results flagged for a closer look

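For miR-27a and miR-23b the difference was below 0 at day 2 and above 0 at day 14, which drew attention to them. miR-27a was at -0.14 at day 2 and 0.64 at day 14, and miR-23b at -0.17 and 0.92. The difference between the days was not tested, since each group had 1 array and the array generation and the RNA amount changed with the day. For miR-23b the probe number changed too. Under the main processing both day 2 values were within their errors, and without spot set 4, normalized anew, they were -0.09 and 0.00. Without normalization they were -0.46 (SE 0.20) and -0.37 (SE 0.15), beside a median of -0.32 for all rat miRNAs. With set 4 dropped after normalization they were -0.28 (SE 0.24) and -0.25 (SE 0.20), beside -0.22. In the authors' value table they were -0.31 and -0.43, and with cyclic loess 0.08 and -0.03.

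The array of day 14 also carries a human-named probe for miR-23c, outside the members and chosen after its values were seen. Its spots had foregrounds of 231, 227, 242.5 and 258 in sham and 655, 660, 583 and 552.5 in MI, without overlap. It was 1.07 higher in MI (SE 0.068), from 8.04 to 9.11, or 2.11-fold. Signal from rat miR-23a or miR-23b at this probe was not tested.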

How the results depend on the processing

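No paired analysis was possible because each group has 1 array. No called value changed sign, but the uncalled miR-23 gap at day 14 did in the authors' value table. The count of members called higher at day 2 was 1 of 5 with local background subtracted and in the authors' value table (miR-27b in both, at 1.10 and 1.37). It was also 1 of 5 at a 1.5-fold threshold (miR-24-1*). Over all rat miRNAs these counts were 21, 25 and, at 1.5-fold, 26 of 187. At day 14 the count of members called higher was 4 of 6 without normalization, 3 of 6 with arrays shifted by spike-in probes and 5 of 6 at 1.5-fold. It was 0 with centred arrays, with cyclic loess and with quantiles over the 4 arrays. Over all rat miRNAs these were 42, 36, 63 (of 230), 16, 21 and 25, and 51 with local background subtracted. Apart from 1.5-fold, the total of rat miRNAs with a value is not given here and can change with the setting, so these counts give no share. The members' median at day 14 was 1.17 without normalization, 1.04 with spike-ins, 0.54 with loess, 0.46 centred, 0.38 in the value table and 0.35 with quantiles over 4 arrays, while the median of all rat miRNAs was 0.40, 0.27, 0.12, -0.04, 0.00 and 0.29. Quantiles over 4 arrays gave a value for 3 members only and none for the a and b pairs, as the other probes differ between generations. The miR-27 gap at day 14 was -0.59 without normalization, centred and with spike-ins, -0.56 with loess and -0.78 in the value table, and at day 2 it was -1.68 there. The miR-23 gap at day 14 was -0.058 without normalization, centred and with spike-ins, -0.019 with loess and 0.26 in the value table. The cause of these shifts was not tested.

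Leaving out each spot set in turn, with normalization repeated, gave day 2 medians of -0.08 to 0.10, miR-23 gaps of 0.03 to 0.22 and miR-27 gaps of -0.75 to -0.35, and day 14 medians of 0.66 to 0.73, miR-23 gaps of -0.27 to -0.15 and miR-27 gaps of -0.49 to -0.37. The count of members called higher stayed 0 at day 2 and 1 at day 14, and the count called lower 0 at both. Dropping set 4 after normalization over all sets, instead of before, was the first form of this step; it was replaced, and kept as an alternative, after its values were seen. It gave a day 2 median of -0.22 for the members and -0.22 for all rat miRNAs. High background on the day 2 sham array and saturation limit the day 2 values.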

Other observations

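The day 2 array also has a human-named miR-23b probe, which was saturated in sham. MI was lower there by a bound, with a difference of -0.41 (SE 0.11), while the rat miR-23b probe differed by -0.17 (SE 0.17).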
